A study of Sus scrofa with 9 samples.

Results

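The comparison set ischemic against healthy myocardium of the same 3 pigs, with nascent RNA as the readout. A gene entered it if its row held a mean of at least 0.5 RPKM (reads per kilobase of annotated span, scaled to the total reads of the library) over the 9 libraries of the series. Where several rows of a gene passed, the row with the longest span stood for it, which left 2104 of the 3952 genes of the table. Of these, 28 reached the minimum through the ischemic libraries alone, with healthy and border zone means both under it, and 11 of the 28 were among the genes called higher. Genes low in healthy tissue could also pass through the border zone and ischemic libraries together. They entered only if at least 1 of these zones was higher.

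The animals were female farm pigs in which a coil placed through a catheter closed the distal left anterior descending artery, the vessel that feeds the front wall of the left ventricle. The hearts were taken 24 h later, and each pig gave 1 healthy, 1 border zone and 1 ischemic sample, so that the healthy tissue came from the same infarcted hearts. The tissue was minced and digested with collagenase, the freed cells were filtered, and their nuclei were used for GRO-seq. In this assay RNA polymerases that were already on a gene extend their transcripts for a few minutes with bromouridine, and the labelled RNA is pulled out and sequenced.

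GRO-seq therefore reports how many polymerases were transcribing a gene in the nuclei collected, introns included, and not how much finished mRNA the cell had stored. Within the first day after a coronary closure, heart muscle cells die or stop contracting, and neutrophils followed by monocytes enter the tissue in large numbers. The libraries are from bulk tissue, in which fewer cells of a type and less RNA per cell cannot be told apart.

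Transcription differed between the zones for 722 of the 2104 genes, 34.3% of those tested, at an adjusted p under 0.05. Of these, 482 genes (22.9%) were higher and 240 genes (11.4%) were lower in ischemic tissue. Here and below, a called gene is one of these 722, and a log2 fold change is the fitted ischemic minus healthy difference of log2(RPKM + 0.1) with its standard error, from limma with the pig as a block and Benjamini-Hochberg adjustment over all 2104 genes. Levels are listed in the order of pigs 1, 2 and 3. At least a 4-fold difference was fitted for 146 of the higher and 87 of the lower genes, and at least a 16-fold one for 24 and 7.

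The 2 directions differed in healthy level and in span. Genes called lower were transcribed at a median of 2.67 RPKM in healthy tissue and had a median span of 25148 bp. Genes called higher started from a median of 0.837 RPKM and had a median span of 10617 bp. Over all 2104 genes the medians were 1.21 RPKM and 12301 bp. The healthy level is part of the comparison that made the calls, so the gap in level follows in part from the calls. The ischemic minus healthy difference had the same sign in 3 of 3 pigs for all 482 higher genes and for 239 of the 240 lower genes, the exception being TNNT1. The healthy and the ischemic libraries did not overlap at all for 450 of the higher and 222 of the lower genes. Among all 2104 genes, called or not, the ischemic libraries lay all above the healthy ones in 609 and all below in 324. Lack of overlap is therefore not particular to called genes.

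**Figure D1:**
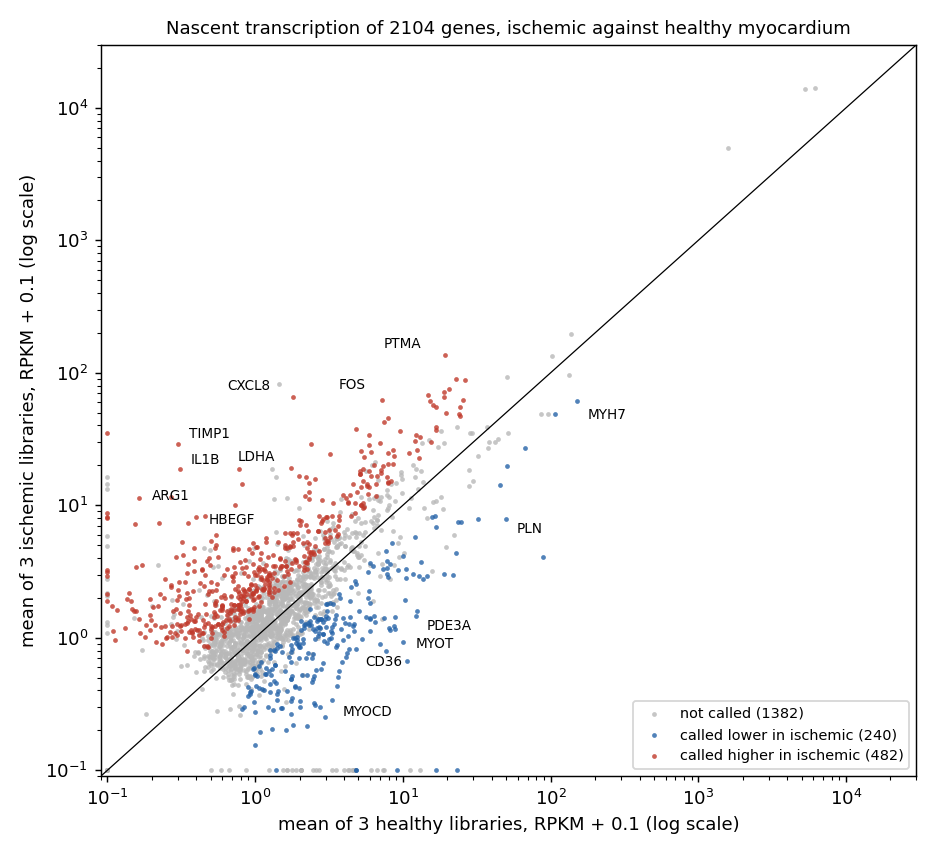
Mean level of each of the 2104 genes in the 3 healthy (x axis) and the 3 ischemic libraries (y axis), both as RPKM + 0.1 on log scales, with equal levels on the diagonal line. The 482 genes called higher (red) reach down to the left edge, where no read fell on the gene in healthy tissue, and the 240 called lower (blue) include muscle genes such as MYH7, PLN and PDE3A; the 3 grey points at the top right are the ribosomal RNA rows RN18S and RN5-8S and a 137 bp row of SLC2A2, none of them called.

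The libraries were shallow, and the ischemic ones most of all. They held 883656 to 2134087 reads, against 2730083 to 6531658 in healthy and 2187977 to 7005976 in border zone tissue, and the median gene was covered by 17 to 50 reads in an ischemic library and by 48 to 100.5 reads in a healthy one. After thinning every library to the smallest total, 518 genes were called, 357 higher and 161 lower. The median gene was 0.23 log2 units higher in ischemic tissue, and scaling the libraries to the same median brought this to 0.02 and the calls to 364 higher and 312 lower, against 482 and 240 in the values as deposited. Quantile normalization gave 288 higher and 289 lower. The excess of higher over lower calls was thus absent after quantile normalization, whereas 342 genes (240 higher, 102 lower) kept their call in each of the 9 fits that left out 1 library. The count of calls fell most without healthy replicate 3, to 416, and without healthy replicate 1, to 450. Where a count of 2 or more list members below moved by over 1.5 times in those 9 fits, the lowest of them follows in brackets with the library left out. Several counts of 1 fell to 0 in some of these fits. In a fit on the 6 healthy and ischemic libraries alone, with fewer samples to set the spread, 356 genes were called (242 higher, 114 lower).

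**Figure D2:**
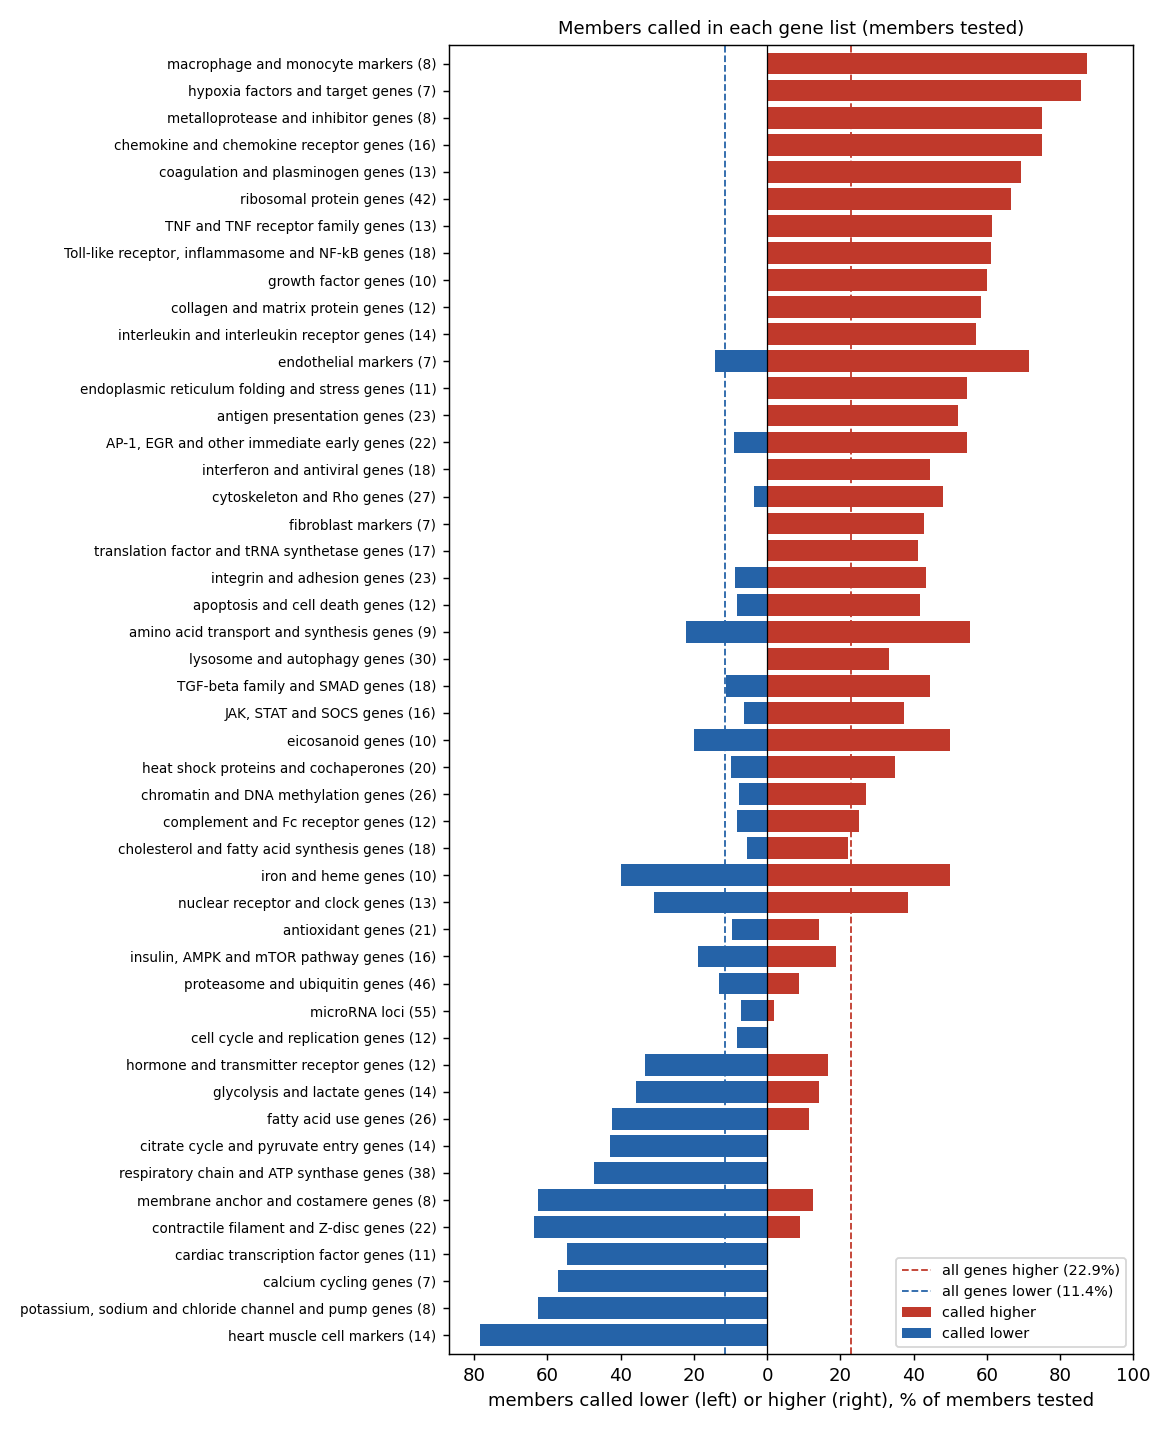
Share of the members tested in each gene list that was called higher (red, to the right) or lower (blue, to the left) in ischemic tissue, in percent, for lists with at least 7 members tested (number in brackets). The dashed lines are the shares over all 2104 genes, 22.9% higher and 11.4% lower; muscle and mitochondrial lists lie at the bottom, leukocyte, hypoxia and ribosomal protein lists at the top.

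The largest losses in level were in the genes that build and drive the contractile apparatus. MYH7, the slow heavy chain of myosin, stood at 207, 137 and 109.9 RPKM in healthy and 64.8, 94.1 and 25.8 RPKM in ischemic libraries, which is -1.43 ± 0.37 on the log2 scale (adjusted p = 0.0268). The groups did not overlap, but the call was lost without any 1 of 5 libraries, healthy replicates 1 and 3, border zone replicate 2 and ischemic replicates 1 and 3, with adjusted p up to 0.104. It was also lost in the fit without the pig as a replicate block (adjusted p = 0.06). The other members of the 10 largest losses were MIR208B, TCAP, PLN, TNNI3, TNNC1, TNNT2, MYL2, MIR1 and ACTN2.

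Among 22 filament and Z-disc genes tested, 14 were lower and 2 higher (lowest 5 lower, without healthy replicate 1, and 0 higher, without healthy replicate 3), with a median log2 fold change of -1.38 against 0.23 over all genes. ACTN2, the actin crosslinker of the Z-disc, went from 24.3, 24.6 and 16.8 RPKM to 1.86, 4.47 and 2.27 RPKM, a log2 fold change of -2.97 ± 0.26. CSRP3, the muscle LIM protein bound to it, went from 14.8, 10.6 and 11.3 to 1.18, 1.85 and 1.43 RPKM (-2.97 ± 0.24). MYOT, myotilin of the Z-disc, was among the 15 largest falls of the comparison, from 8.36, 9.96 and 11.6 to 0.633, 1.35 and 0.492 RPKM (-3.54 ± 0.33, adjusted p = 0.00118). For these 3 genes each ischemic library lay below every healthy library, with pig 2 the highest of the ischemic ones.

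The troponin and light chain genes had weaker support. TNNI3, TNNC1, TNNT2, MYL2 and TCAP had log2 fold changes of -1.41, -1.76, -1.45, -2.57 and -1.11, and each lost its call without any 1 of 4 to 7 libraries, healthy replicates 1 and 3 and ischemic replicate 3 in every case (adjusted p up to 0.138, for MYL2 without healthy replicate 1). MYL2, the regulatory light chain, stood at 56.3, 20.1 and 19.9 RPKM in healthy tissue and at 2.36, 18.5 and 2.31 RPKM in ischemic tissue, so that pig 2 lay just under the lowest healthy value and the other pigs far below it. For TNNI3 the groups overlapped, and its call was lost in the fit without the pig as a replicate block (adjusted p = 0.0955). ACTA1, skeletal alpha-actin (-1.06, adjusted p = 0.117), and DES, desmin (-0.52, adjusted p = 0.156), were not called. The tropomyosins went in opposite directions: TPM1, the main form of the sarcomere, fell from 23, 20.6 and 30.3 to 6.12, 13.4 and 2.5 RPKM, while TPM4, a form of nonmuscle filaments, rose from 1.29, 1.81 and 1.38 to 6.76, 3.13 and 4.05 RPKM. Neither gene's groups overlapped, but both calls were lost without healthy replicate 3 (adjusted p = 0.134 and 0.0621) or ischemic replicate 1 (0.0706 and 0.0511), and that of TPM1 also without healthy replicate 1, ischemic replicate 3 or either of border zone replicates 1 and 2.

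Genes that tie the sarcomere to the membrane were lower in 5 of 8 and higher in 1 of 8 (lowest 3 lower, without healthy replicate 1). DMD, dystrophin, had 1.25, 1.53 and 1.47 RPKM in healthy and 0.168, 0.295 and 0.123 RPKM in ischemic libraries over a span of 2473191 bp (-2.40 ± 0.26). A shorter row of DMD, the one with the highest mean level, was not called (adjusted p = 0.341). SGCA, a sarcoglycan of the same complex, fell from 1.83, 2.71 and 2.38 to 0.282, 0.528 and 0.292 RPKM (-2.39 ± 0.22). All 3 ischemic values of DMD and SGCA lay below all healthy ones. UNC45B, a chaperone of myosin, fell from 1.33, 1.11 and 2.19 to 0.288, 0.308 and 0.298 RPKM (-1.99 ± 0.28). POPDC3 and ASB11, muscle genes of the membrane and of ubiquitin ligation, had log2 fold changes of -2.95 ± 0.27 and -3.06 ± 0.45.

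All 4 called genes of 7 for calcium cycling (PLN, ATP2A2, CAMK2D and CACNA2D1) were lower, a count that stayed at 4 in each of the 9 fits without 1 library. PLN, phospholamban, the brake on the calcium pump, went from 52.9, 40.2 and 55.2 RPKM to 4.06, 14.6 and 4.85 RPKM (-2.87 ± 0.44, adjusted p = 0.00473). ATP2A2, the pump itself, went from 18, 25.3 and 25.5 to 3.33, 6.21 and 3.15 RPKM (-2.46 ± 0.24). CAMK2D, a calmodulin kinase that acts on phospholamban, fell by 4.56 fold, from 5.86, 6.47 and 6.64 to 1.01, 1.98 and 1.11 RPKM. The groups did not overlap for any of these, and pig 2 was the highest of the ischemic libraries in each of them.

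Electrical and signalling genes of the heart muscle cell were lower as well. Of 8 channel and pump genes 5 were lower and none higher. GJA1, connexin 43 of the gap junction, went from 24.6, 25.3 and 20.1 RPKM to 5.77, 9.15 and 7.4 RPKM (-1.65 ± 0.22, adjusted p = 0.00319). KCNJ5, a potassium channel of the muscarinic current, fell from 1.85, 2.11 and 1.75 to 0.0956, 0.465 and 0.139 RPKM. Neither gene's groups overlapped. PDE3A, the phosphodiesterase that breaks down cyclic AMP in heart muscle, had the smallest adjusted p of the genes called lower, falling from 12.7, 13.3 and 10.2 to 1.01, 2.08 and 1.03 RPKM (-3.11 ± 0.22, adjusted p = 0.000638). The highest ischemic value of PDE3A, in pig 2, was under the lowest healthy value by several fold.

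Hormone and transmitter receptor genes were lower in 4 of 12 and higher in 2 (lowest 1 higher, without healthy replicate 1), of which HTR7 is a receptor and EDN1 is the ligand endothelin 1. The shares were 33.3% lower and 16.7% higher, against 11.4% and 22.9% of all genes. EDNRA, an endothelin receptor, fell from 5.13, 3.08 and 4.5 to 0.494, 1.19 and 0.469 RPKM (-2.49 ± 0.38), and RAMP1, outside the list, the partner that makes a calcitonin gene related peptide receptor, from 3.28, 3.86 and 4.16 to 0.428, 1.14 and 0.111 RPKM. ADRB1, the beta-1 adrenergic receptor, held 45 reads over the healthy and 1 read over the ischemic libraries, a pooled ratio of 0.0678 (exact 95% interval 0.00168 to 0.398), and lost its call without healthy or ischemic replicate 2 or 3 or border zone replicate 1 (adjusted p up to 0.105). HTR7, a serotonin receptor that raises cyclic AMP, stood at 0.0786, 0.125 and 0.104 RPKM in healthy and 1.64, 1.67 and 1.48 RPKM in ischemic tissue (3.07 ± 0.30, adjusted p = 0.00118). The 3 ischemic values of HTR7 lay close together and the border zone values were between the groups, at 0.741, 0.632 and 1.23 RPKM.

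Transcription factors that keep the cardiac program were lower in 6 of 11 and higher in none. SMYD1, a muscle methyltransferase on this list and one of the 15 largest falls, went from 3.23, 1.49 and 3.23 to 0.239, 0.309 and 0.0444 RPKM over a span of 25511 bp (-3.26 ± 0.45). MYOCD, the coactivator of serum response factor, fell from 3.46, 3.29 and 2.82 to 0.179, 0.447 and 0.095 RPKM (-3.40 ± 0.30, adjusted p = 0.00118). GATA6 fell from 12, 21.2 and 23.1 to 2.69, 4.05 and 2.05 RPKM (-2.63 ± 0.28) and GATA4 from 3.12, 3.81 and 4.23 to 1.01, 1.34 and 0.842 RPKM (-1.73 ± 0.24). PROX1, a homeodomain factor, and ZFPM2, a partner of GATA factors outside the list, had log2 fold changes of -1.78 ± 0.20 and -1.53 ± 0.24. MEF2C did not pass, at 2.49, 1.95 and 2.54 RPKM in healthy and 2.37, 1.86 and 1.93 RPKM in ischemic tissue (-0.17 ± 0.16, adjusted p = 0.452), and its groups overlapped. The ischemic values of MYOCD, SMYD1, GATA6, GATA4, PROX1 and ZFPM2 lay below all healthy values, with pig 2 the highest of them in each.

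**Figure D3:**
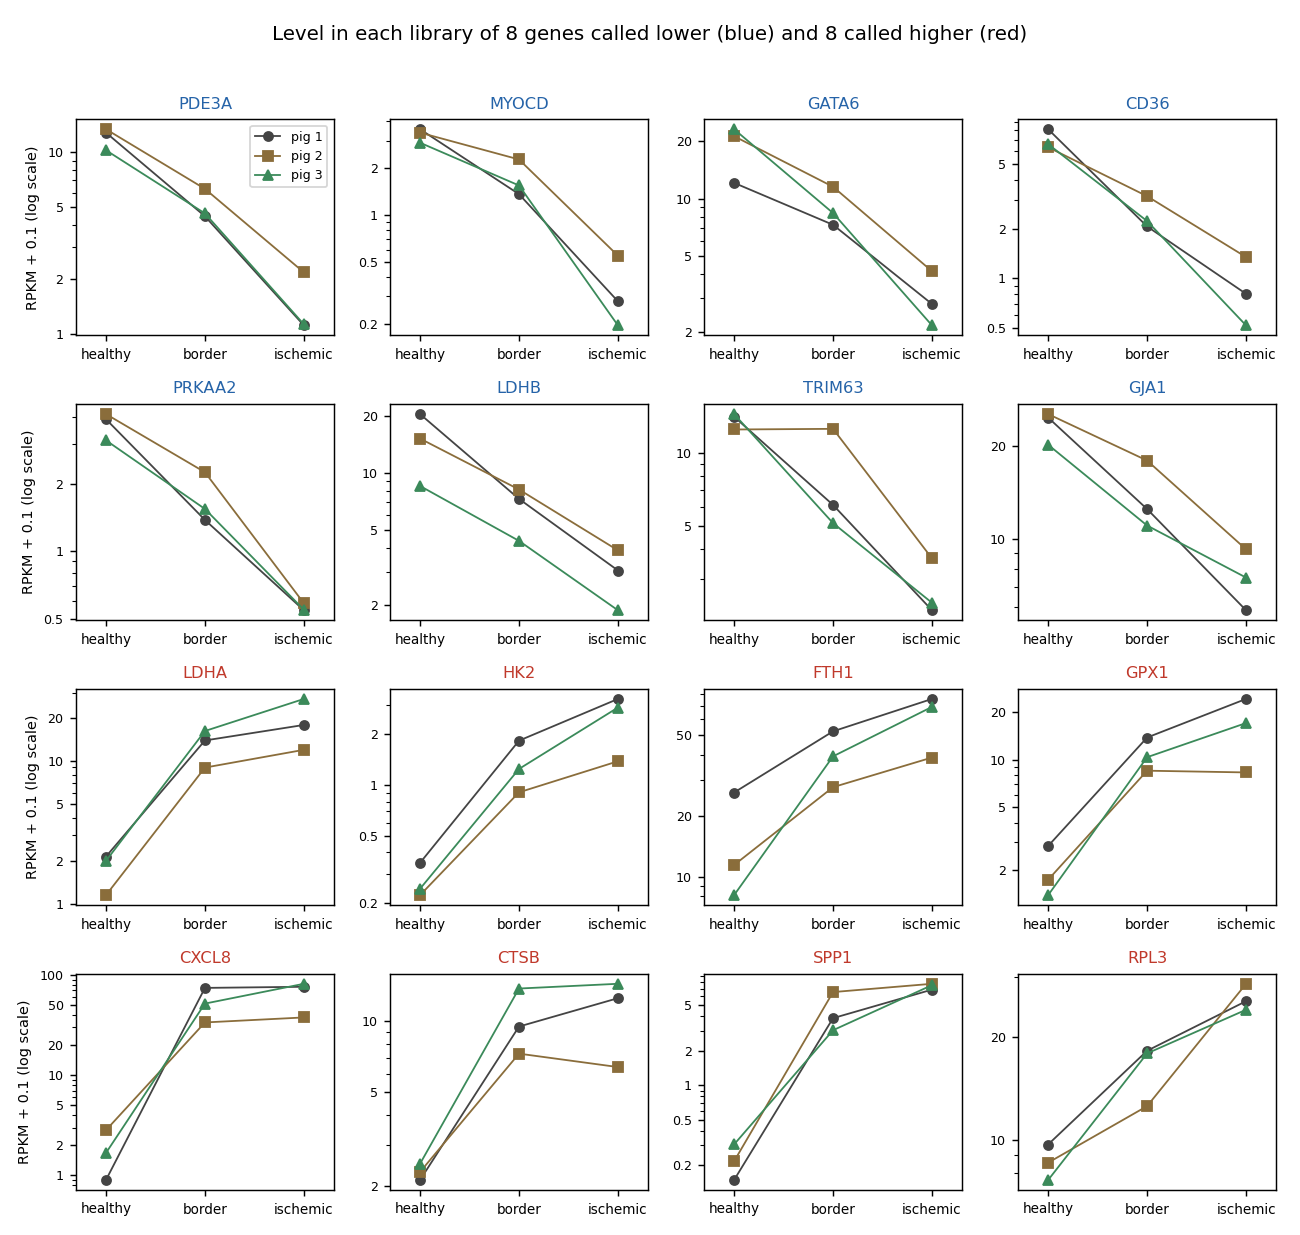
Level of 16 genes in each library (RPKM + 0.1, log scale), with a line for each pig from healthy over border zone to ischemic tissue. The 8 genes with blue names were called lower and the 8 with red names higher in ischemic tissue; the healthy and ischemic points of these genes do not overlap, and pig 2 (square) is the highest of the ischemic points in each of the lower genes.

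Muscle ubiquitin ligases, known from wasting muscle where they rise, fell here. TRIM63 (MuRF1) went from 14, 12.4 and 14.4 RPKM to 2.13, 3.56 and 2.3 RPKM (-2.34 ± 0.31, adjusted p = 0.00313) and FBXO32 (atrogin-1) from 5.45, 2.76 and 5.55 to 0.873, 1.34 and 0.829 RPKM (-2.03 ± 0.34). They belong to a list of 46 proteasome and ubiquitin genes of which 4 were higher and 6 lower (lowest 1 higher and 3 lower, without healthy replicate 1), with a median log2 fold change of 0.02, below the 0.23 of all genes. Neither TRIM63 nor FBXO32 had overlapping groups.

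Other large falls were in genes outside these groups. CCK, the gene of the peptide cholecystokinin, stood at 11.1, 15.3 and 5.08 RPKM in healthy and 0, 1.71 and 0 RPKM in ischemic libraries, 593 reads against 10 (-5.20 ± 0.66, adjusted p = 0.00286). LRRC2, a leucine-rich repeat gene of heart and skeletal muscle, fell from 7.04, 7.21 and 8.4 to 0.929, 0.727 and 0.417 RPKM (-3.33 ± 0.30). PCDH7, a protocadherin, fell from 2.64, 4.02 and 3.81 to 0.192, 0.646 and 0.15 RPKM, and DPP4, a peptidase of the cell surface, from 3.37, 4.72 and 4.03 to 0.444, 1.06 and 0.334 RPKM. MLPH, melanophilin, held 89 reads over the healthy libraries and none over the ischemic ones, which makes it at least 9.72-fold lower when 3 reads over the group are taken as the floor. Such bounds, here and below, take the reads of the other group as exact and leave out their counting error. A 127 bp row of MLPH with a higher mean was not called (adjusted p = 0.839). The groups of these 5 genes did not overlap, and the 10 ischemic reads of CCK all came from pig 2.

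Other large falls rest on few reads or on short rows. VMO1, a vitelline membrane protein homolog, held 31 healthy reads and 1 ischemic read, a pooled ratio of 0.0984 (exact 95% interval 0.00241 to 0.591). CYB5R1, a reductase, went from 3.29, 5.82 and 5.03 to 0.589, 1.57 and 0 RPKM, and KLF12, on a 151 bp row, from 7 reads to none, for which the depth allows no bound. CYB5R1 lost its call without any 1 healthy library, border zone replicate 2 or ischemic replicate 2 (adjusted p up to 0.126), and KLF12 without any 1 healthy library or ischemic replicate 1 or 2 (up to 0.12). KLF12 was far from a call with limma-voom on the recovered reads (adjusted p = 0.605) and was not called after thinning to the smallest library total. A row of ATP5H on chromosome 16, 561 bp long, held 25 healthy reads and no ischemic read, but the row of ATP5H on chromosome 12 was higher in 2 of 3 ischemic than in all healthy libraries and was not called (adjusted p = 0.147).

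Energy genes of the heart fell in number, and their isozymes split. Fatty acid use genes were lower in 11 of 26 and higher in 3. CD36, the fatty acid transporter, fell from 8.01, 6.2 and 6.48 to 0.704, 1.25 and 0.416 RPKM (-3.08 ± 0.31, adjusted p = 0.00129). HADHA, which carries later steps of beta-oxidation, fell from 2.43, 1.99 and 1.97 to 0.305, 0.504 and 0.454 RPKM, and ACADM, the medium-chain dehydrogenase, from 3.43, 2.16 and 2.06 to 1.13, 0.823 and 0.864 RPKM. None of the ischemic values of these 3 genes reached a healthy one. Outside the list, ACACB, whose product malonyl-CoA holds fatty acids back from the mitochondrion, fell by 5.13 fold, and AQP7, a glycerol channel, from 6.1, 3.17 and 3.03 to 0.744, 1.04 and 0.224 RPKM (-2.55 ± 0.40).

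The 3 fatty acid genes that rose were ACSL4, ACSL5 and PPARD. ACSL4, an acyl-CoA synthetase that prefers arachidonate, went from 0.84, 0.996 and 0.748 RPKM to 4.26, 2.73 and 3.54 RPKM (1.89 ± 0.27). Outside the list, the lipid droplet coat gene PLIN2 rose from 1.96, 1.21 and 1.83 to 7.58, 4.7 and 5.32 RPKM (1.75 ± 0.19), and the lipase inhibitor ANGPTL4 from 1.29, 0.328 and 0.945 to 4.14, 1.23 and 7.31 RPKM, where the value of pig 2 lay inside the healthy range. LPL, the lipase it blocks, was at 23.5, 32.4 and 32.7 RPKM in healthy and 6.01, 30 and 9.67 RPKM in ischemic tissue and was not called (adjusted p = 0.0968), and its pig 2 value also lay within the healthy range. Peroxisome proliferator receptors split in the same way: PPARA fell from 3.16, 2.88 and 1.44 to 0.383, 0.526 and 0.494 RPKM (-2.13 ± 0.36), whereas PPARD rose from 0.667, 0.702 and 0.636 to 3.7, 1.26 and 2.06 RPKM (1.54 ± 0.31), a call lost in the fit on the 6 healthy and ischemic libraries (adjusted p = 0.0563). RXRG, a shared partner, fell by 5.76 fold.

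Cholesterol genes were higher in 4 of 18 (lowest 2, without healthy replicate 1) and lower in 1, against 22.9% and 11.4% of all genes. INSIG1, which holds back cholesterol synthesis, rose from 0.152, 0.14 and 0.169 to 0.571, 0.683 and 1.51 RPKM, a call lost in the fit on the 6 healthy and ischemic libraries alone (adjusted p = 0.077).

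In the mitochondrion 18 of 38 respiratory chain and ATP synthase genes were lower and none higher (lowest 7, without healthy replicate 3), with a median log2 fold change of -1.06. ATP5O, a stalk subunit of ATP synthase, fell from 5.53, 4.55 and 3.71 to 1, 2.05 and 0.441 RPKM (-2.09 ± 0.34), and COX6C of cytochrome oxidase from 2.97, 2.41 and 1.62 to 0.931, 0.645 and 0.25 RPKM (-1.87 ± 0.25). Citrate cycle genes were lower in 6 of 14 and higher in none (lowest 2, without healthy replicate 1). The groups of ATP5O and COX6C did not overlap. Cytosolic enzymes of the malate-aspartate shuttle fell too, MDH1 from 7.52, 5.74 and 3.33 to 0.808, 2.42 and 0.781 RPKM and GOT1 from 5.41, 3.66 and 3.42 to 0.871, 1.47 and 0.463 RPKM. CS, citrate synthase, did not pass (adjusted p = 0.0969), with values of 7.49, 5.49 and 5.45 RPKM in healthy and 3.26, 2.15 and 0 RPKM in ischemic tissue.

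Glycolysis did not move as a block, with 2 genes higher and 5 lower of 14 (lowest 2 lower, without healthy replicate 1). LDHA, the lactate-forming muscle subunit of lactate dehydrogenase, rose from 2.03, 1.05 and 1.89 to 17.7, 11.8 and 27.1 RPKM (3.41 ± 0.20, adjusted p = 0.000474). LDHB, the heart subunit, fell from 20.3, 15 and 8.41 to 2.95, 3.79 and 1.78 RPKM (-2.29 ± 0.22). In healthy tissue LDHB exceeded LDHA per length in every library, and in ischemic tissue LDHA exceeded LDHB in every library. A shorter LDHB row on chromosome 2, with a higher mean, was not called (adjusted p = 0.135). It stood at 13.5, 41.7 and 18.6 RPKM in ischemic tissue, so that in pig 2 it exceeded LDHA.

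Entry into glycolysis and its muscle isozymes also parted. HK2, the hexokinase induced by hypoxia, rose from 0.247, 0.123 and 0.144 to 3.14, 1.29 and 2.78 RPKM (3.14 ± 0.24, adjusted p = 0.000723). PFKM, muscle phosphofructokinase, fell from 10.7, 8.09 and 5.59 to 1.11, 1.59 and 0.462 RPKM (-2.92 ± 0.27). PGAM2, the muscle form of a later enzyme, fell from 6.16, 1.81 and 2.64 to 0.83, 0.388 and 0 RPKM, and ENO3, the muscle enolase, from 23.6, 8.35 and 6.57 to 2.18, 5.05 and 1.26 RPKM. Both lost the call without healthy replicate 1 or 3 (adjusted p up to 0.0558 and 0.0822), and ENO3 also without ischemic replicate 1 or 3. SLC2A4, the insulin-dependent glucose transporter, fell from 9.19, 6.62 and 3.4 to 0.301, 2.25 and 1.09 RPKM, also lost without healthy replicate 1 or 3 (adjusted p up to 0.0882). PRKAA2, the AMP kinase catalytic subunit of muscle, fell from 3.79, 4 and 3.03 to 0.444, 0.485 and 0.447 RPKM (-2.72 ± 0.20, adjusted p = 0.000723), with ischemic values within a narrow range. A 141 bp row of the gene with a higher mean was not called (adjusted p = 0.652).

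Hypoxia factors and targets were higher in 6 of 7 and lower in none. ADM, the dilator peptide adrenomedullin, rose from 2.71, 0.762 and 2.86 to 9.58, 4.19 and 7.38 RPKM (1.81 ± 0.26) and HIF1A itself from 0.958, 1.35 and 1.34 to 3, 3.03 and 4.05 RPKM (1.39 ± 0.22). DDIT4, a stress brake on mTOR and one of the 10 largest gains, went from 15.1, 24.1 and 17.3 to 54.1, 46.4 and 97.2 RPKM, but its call was lost without healthy replicate 1 (adjusted p = 0.0504) and in the fit on the 6 healthy and ischemic libraries (0.0526).

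Antioxidant genes were higher in 3 of 21 and lower in 2 (lowest 1 lower, without healthy replicate 1), 14.3% and 9.52%, shares under the 22.9% and 11.4% of all genes. CAT, catalase, fell from 1.76, 1.24 and 1.5 to 0.68, 0.373 and 0.34 RPKM (-1.54 ± 0.27), while GPX1, which also removes peroxide, rose from 2.74, 1.64 and 1.29 to 24.1, 8.21 and 17 RPKM (2.99 ± 0.29, adjusted p = 0.00118). SOD2, the mitochondrial dismutase, rose from 3.26, 2.77 and 2.31 to 10.8, 7.46 and 4.98 RPKM. None of these groups overlapped. Iron and heme genes were higher in 5 of 10 and lower in 4 (lowest 3 higher and 0 lower, without healthy replicate 1). FTH1, the heavy chain of the iron store ferritin, was among the largest gains, from 25.9, 11.3 and 8.01 RPKM to 75.4, 38.7 and 68.9 RPKM (2.13 ± 0.34). HBB, beta-globin, rose from 4.66, 14.4 and 3.04 to 66.3, 40.4 and 19.8 RPKM (2.65 ± 0.45), with border zone values of 3.36, 8.74 and 1.45 RPKM that lay within or below the healthy range. The summed level of 5 red blood cell and platelet markers, HBB among them, was 3.33 to 14.6 RPKM in healthy and 23 to 68.4 RPKM in ischemic libraries. HBB made up most of this sum in each of these libraries, so the sum is no separate measure. The part of red blood cell content in the HBB result was not tested.

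Amino acid transport and synthesis genes were higher in 5 of 9 and lower in 2 (lowest 3 higher, without healthy replicate 1, and 0 lower, without healthy replicate 3). After ARG1, described with the myeloid genes, SAT1, which starts the breakdown of polyamines, rose most, from 7.42, 5.68 and 4.26 to 33.1, 14.6 and 37.3 RPKM (2.20 ± 0.34). SLC7A7, a transporter of arginine and lysine, rose from 0.209, 0.175 and 0.363 to 2.72, 0.869 and 0.884 RPKM (2.03 ± 0.41), a call lost in the fit on the 6 healthy and ischemic libraries. UCP2, an uncoupling carrier of leukocyte and other mitochondria, rose from 0.672, 0.292 and 0.179 to 2.27, 1.61 and 2.26 RPKM (2.27 ± 0.30). No healthy value of these 3 genes reached an ischemic one.

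Ribosomal protein genes were the list with the most members called higher, 28 of 42, with none lower and a median log2 fold change of 1.00. The count depended on the scaling and the libraries: 13 with libraries scaled to the same median, 7 after quantile normalization, and 9 without healthy replicate 3. RPS20 stood at 19.2, 13.4 and 14.7 RPKM in healthy and 69.2, 46.7 and 54.8 RPKM in ischemic libraries (1.84 ± 0.21, adjusted p = 0.00201), and RPL3 at 9.58, 8.46 and 7.51 RPKM and 25.5, 28.6 and 24 RPKM (1.60 ± 0.23). The groups were apart for both. RPLP2 and RPS23 rose by 3.37 and 2.47 fold. RPL7, on a 179 bp row, went from 40.9, 11.4 and 8.55 to 78.5, 83.2 and 63.2 RPKM and lost its call without healthy replicate 2 or 3 or any 1 ischemic library (adjusted p up to 0.107). Its groups did not overlap. Ribosomal protein genes have many near-identical processed copies in mammalian genomes, so that reads can be split or shared between copies in a way the table does not show.

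PTMA, EEF1A1 and the thymosin genes also have such copies. PTMA, prothymosin alpha, had the largest gain in level, from 27.6, 15.2 and 14.7 to 178, 100.2 and 129 RPKM on a 385 bp row (2.84 ± 0.26, adjusted p = 0.00118). EEF1A1, the elongation factor that brings tRNA to the ribosome, went from 40.3, 18.9 and 19.7 to 102, 88.5 and 73 RPKM (1.81 ± 0.29), and TMSB10, a thymosin that binds actin monomers, from 31.7, 18.1 and 18.8 to 102, 80.2 and 89.1 RPKM (2.02 ± 0.23). All 3 genes were higher in each ischemic than in any healthy library. TMSB4X rose from 12.2, 22.7 and 9.34 to 73.6, 32.4 and 96.2 RPKM but lost its call without replicate 1 or 3 of either zone (adjusted p up to 0.0806). Its span overlaps that of the transcript listed as NM_001141991, which rose from 21.3, 22.8 and 12.8 to 84.3, 56.7 and 74.3 RPKM. FOS, an immediate early factor, had 7.29, 7.58 and 6.53 RPKM in healthy and 75, 39.9 and 71.2 RPKM in ischemic tissue (3.05 ± 0.30). CXCL8, RPL7, DDIT4 and FTH1 were the other members of the 10 largest gains.

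Cytoskeleton genes, which move with cell shape and migration, were higher in 13 of 27 and lower in 1. CFL1, cofilin, rose from 5.2, 2.79 and 4.96 to 14.4, 9.14 and 11.8 RPKM, and ARPC2, ACTR2 and ACTR3, parts of the complex that branches actin, had log2 fold changes of 1.28 ± 0.18, 1.11 ± 0.16 and 1.21 ± 0.19. PFN1, profilin, rose from 7.13, 3.59 and 5.02 to 13.8, 13.8 and 18.2 RPKM, while ENO3, 2652 bp away from it, fell. Of 624 pairs of adjacent tested genes within 100000 bp, both were called in 79, in the same direction in 63 and in opposite directions in 16. Over all genes 34.3% were called, 22.9% higher and 11.4% lower, and the pair counts were not tested against these shares. Spans overlapped in 26 pairs, 9 of them with both genes called. Whether the counting used strand was not given in the sources used here, so the members of such a pair cannot be told apart.

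Immediate early and related genes were higher in 12 of 22 and lower in 2 (lowest 7 higher, without healthy replicate 3, and 5 after quantile normalization, and 1 lower, without healthy replicate 1). MYC rose from 1.4, 1.29 and 3.52 to 10.4, 9.41 and 15 RPKM (2.55 ± 0.24, adjusted p = 0.00118), BTG1 from 4.54, 7.97 and 11 to 44.4, 26.5 and 65.9 RPKM (2.52 ± 0.39) and ID2, a blocker of helix-loop-helix factors, from 2.99, 2.5 and 1.87 to 16.2, 5.36 and 25.4 RPKM. The call of ID2 was lost in the fit on the 6 healthy and ischemic libraries (adjusted p = 0.0526). NR4A3, an orphan nuclear receptor of the same early class, fell instead, from 8.85, 9.3 and 5.18 to 3.89, 2.19 and 2.26 RPKM (-1.45 ± 0.23). RUNX1, a factor of blood cells that injured heart muscle also uses, rose from 0.352, 0.384 and 0.565 to 5.64, 3.55 and 4.76 RPKM (3.15 ± 0.24), with no overlap.

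Heat shock genes were higher in 7 of 20 and lower in 2 (lowest 3 higher, without healthy replicate 3, and 1 after quantile normalization, and 0 lower, without healthy replicate 1). Of the 7, 1 had entered the comparison through the ischemic libraries alone. The shares of heat shock genes were 35% higher and 10% lower, against 22.9% and 11.4% of all genes. Endoplasmic reticulum genes were higher in 6 of 11 (lowest 1, without healthy replicate 3). CALR, calreticulin, rose from 15.2, 6.51 and 6.87 to 47.7, 30.8 and 29.4 RPKM (1.98 ± 0.23), and, outside the list, MANF, a secreted factor of the same stress response, from 4.18, 4 and 4.31 to 9.87, 12.5 and 9.19 RPKM (1.30 ± 0.20). HSPA8, the constitutive HSP70, was not called (adjusted p = 0.0648). Lysosome genes were higher in 10 of 30 and lower in none (lowest 6, without healthy replicate 1), 33.3% higher against 22.9% of all genes. The count was 4 in the fit on the 6 healthy and ischemic libraries. CTSB, cathepsin B, rose from 2.02, 2.2 and 2.39 to 12.4, 6.3 and 14.3 RPKM (2.19 ± 0.27) and CTSH from 0.812, 0.909 and 1.05 to 5.11, 3.47 and 5.66 RPKM (2.22 ± 0.19).

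Chromatin genes were higher in 7 of 26 and lower in 2 (lowest 3 higher, without healthy replicate 3, and 1 lower, without healthy replicate 1), close to the shares of all genes. HMGB1, a DNA-binding protein that damaged cells release, rose from 13.2, 7.39 and 5 to 23.5, 21.1 and 16.3 RPKM (1.34 ± 0.24) and HMGA1 from 0.559, 0.857 and 1.08 to 2.09, 2.26 and 2.92 RPKM (1.47 ± 0.20). Cell death genes were higher in 5 of 12 and lower in 1 (lowest 3 higher, without healthy replicate 1). PMAIP1 (NOXA), which promotes apoptosis, rose from 2.32, 0.77 and 2.5 to 8.04, 6.94 and 7.76 RPKM (2.12 ± 0.32), and BCL2A1, which opposes it, from 0.982, 0.196 and 0.293 to 3.77, 0.924 and 1.08 RPKM (1.74 ± 0.26), a call lost in the fit without the pig as a replicate block (adjusted p = 0.103). Its groups overlapped because healthy replicate 1 was high, while those of PMAIP1, HMGB1 and HMGA1 were apart. MDM2, a ubiquitin ligase, was not called (adjusted p = 0.314). Of 12 cell cycle genes none was higher and 1 was lower.

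Inflammatory genes supplied most of the 15 largest rises. Interleukin genes and their receptors were higher in 8 of 14 and lower in none, a count that stayed at 8 without any 1 library. With at least 0.5 RPKM asked of both the healthy and the ischemic group, the count was 0. That filter leaves out genes low in healthy tissue, such as IL1B and IL1A. IL1B went from 0.262, 0.167 and 0.197 RPKM to 30.7, 11.4 and 13.9 RPKM (5.80 ± 0.30, adjusted p = 0.000317), and IL1A, the sister ligand of the same receptor, from 0.152, 0.194 and 0.166 to 18.8, 7.15 and 8.57 RPKM (5.29 ± 0.35). IL10, which restrains macrophages, rose from 0.394, 0 and 0.329 to 3.03, 1.13 and 1.46 RPKM (2.72 ± 0.37). Every ischemic value of these 3 genes was above every healthy one. IL6 had 3 healthy and 30 ischemic reads, a pooled ratio of 30.5 (exact 95% interval 9.49 to 156). LIF, a cytokine of the IL6 family, had no read in healthy tissue and 37 in ischemic tissue, at least 37.6-fold higher against the same floor of 3 reads. TNF was not called (adjusted p = 0.0983): it stood at 7.48, 2.86 and 0.821 RPKM in ischemic tissue against 0.664, 0.635 and 1.11 RPKM in healthy tissue, and the value of pig 3 lay inside the healthy range.

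Chemokines and their receptors were higher in 12 of 16 and lower in none, and in 6 with at least 0.5 RPKM asked of both groups. CXCL8, the main attractant of neutrophils, went from 0.797, 2.72 and 1.57 RPKM to 76.1, 37.6 and 81.6 RPKM (5.25 ± 0.55, adjusted p = 0.00148) and was already at 74.2, 33.5 and 51.7 RPKM in the border zone. CCL2, which calls monocytes, rose from 4.43, 1.23 and 1.21 to 32.6, 14.8 and 39.9 RPKM, and its receptor CCR2 from 0.189, 0.2 and 0.263 to 6.59, 1.8 and 7.18 RPKM. Each ischemic value of these genes was above all healthy ones, with pig 2 the lowest. CCR1 went from 7 to 183 reads (5.64 ± 0.28), and CXCR4, the receptor for the homing factor CXCL12, from 0.12, 0.669 and 1.1 to 8.75, 4.59 and 16.7 RPKM. AMCF-II, a porcine attractant of neutrophils, had 3 healthy and 28 ischemic reads, a pooled ratio of 28.5 (exact 95% interval 8.8 to 146). The span of XCR1 overlaps that of CCR1, so reads of 1 can count for the other.

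Several genes of neutrophils and other myeloid cells had no read at all in healthy tissue. S100A8 and S100A12, calcium-binding proteins that neutrophils release, had no healthy read and 34 and 52 ischemic reads, at least 34.6 and 52.9 fold higher. GPR84, a fatty acid receptor of myeloid cells, had none and 54, at least 54.9-fold higher. SLC11A1, a metal transporter of the phagosome, had none and 23 on a 1543 bp row, at least 23.4-fold higher. S100A9, the partner of S100A8, had 33 ischemic reads but none in pig 2 and was not called (adjusted p = 0.146).

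Macrophage and monocyte markers were higher in 7 of 8 tested, CD14 and TLR4 among them. With at least 0.5 RPKM asked of both groups the count was 1. ARG1, arginase, went from 7 healthy reads to 639 ischemic reads and from 0.189, 0 and 0 to 12.2, 7.9 and 13.8 RPKM (6.28 ± 0.32, adjusted p = 0.000317). SPP1, osteopontin, went from 0.049, 0.117 and 0.205 to 6.77, 7.62 and 7.42 RPKM (5.10 ± 0.33), with the 3 ischemic values within a narrow range. CD14, a receptor for bacterial lipid, rose from 1.33, 0.531 and 0.278 to 13.3, 15.4 and 14.4 RPKM (4.37 ± 0.44). C5AR1, the receptor of the complement fragment C5a, rose from 0.534, 0.547 and 0.244 to 6.24, 4.14 and 7.3 RPKM, TLR4 from 0.325, 0.323 and 0.203 to 6.02, 2.43 and 5.64 RPKM and NLRP3 of the inflammasome from 0.117, 0.132 and 0.173 to 3.12, 1.12 and 1.47 RPKM. CDA, cytidine deaminase, and FOLR1, a folate receptor, rose by 20.5 and 17.3 fold, and the myeloid factors SPI1 and IRF8 by 4.67 and 8.18 fold. None of the genes named here had overlapping groups.

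Innate sensing genes were higher in 11 of 18 and lower in none (lowest 7, without ischemic replicate 1). MYD88, the adaptor shared by most Toll-like receptors, rose from 0.56, 0.334 and 0.292 to 3.4, 2.68 and 4.32 RPKM (2.86 ± 0.34). The tumor necrosis factor family was higher in 8 of 13, and the JAK, STAT and SOCS genes in 6 of 16 with 1 lower (lowest 2 higher, without healthy replicate 1). The 6 of 16 are 37.5%, against 22.9% of all genes. STAT6, the factor of interleukin 4 signals, rose from 1.09, 1.06 and 1.09 to 3.32, 1.98 and 5.02 RPKM (1.49 ± 0.27), a call lost after thinning to the smallest library total (adjusted p = 0.0572). IL4R, part of the interleukin 4 receptor, was not called (adjusted p = 0.138). NCF1, a subunit of the oxidase of the oxidant burst, rose from 0.392, 0.166 and 0.295 to 5.88, 1.56 and 3.55 RPKM. The groups were apart for MYD88, STAT6 and NCF1.

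Signalling genes of blood cells rose as well. VAV1, an exchange factor used by leukocyte receptors, went from 0.162, 0.179 and 0.193 to 2.17, 0.536 and 1.81 RPKM (2.34 ± 0.39), RGS18, a brake on G protein signals in platelets and myeloid cells, from 0.174, 0.524 and 0.453 to 4.98, 3.24 and 3.47 RPKM (3.11 ± 0.41), and CD69, an early activation marker, from 0.633, 0.126 and 0.309 to 4.12, 1.14 and 3.42 RPKM (2.69 ± 0.21). FCN1, ficolin of monocytes, had 1 healthy and 48 ischemic reads, a pooled ratio of 146 (exact 95% interval 25.1 to 5903). IL18 and IL2RG, a cytokine of the inflammasome and a shared receptor chain, had log2 fold changes of 2.80 ± 0.37 and 2.93 ± 0.22. Lymphocyte markers were higher in 1 of 4 tested, CCR7, which is 25%, near the 22.9% of all genes. That call was lost in the fit on the 6 healthy and ischemic libraries and without ischemic replicate 1. The lymphocyte markers summed to 2.22 to 4.99 RPKM in healthy and 6.18 to 10.5 RPKM in ischemic libraries.

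Beside these gene groups the summed levels of marker lists moved. Macrophage and monocyte markers (14 genes, CD163 and SIRPA without a read) summed to 2 to 3.4 RPKM in healthy and 29.2 to 38.8 RPKM in ischemic libraries. Neutrophil markers (12 genes, 7 without a read in healthy tissue) summed to 0.475 to 0.788 RPKM and 14.5 to 32.6 RPKM. Heart muscle markers (15 genes, CKM without a read in any group) went the other way, from 370.3 to 642 RPKM down to 87.7 to 250.3 RPKM. Genes named above, such as CD14, S100A8 and PLN, belong to these lists and enter the sums. The part of such shifts in the results of single genes was not tested. Fibroblast markers overlapped between the groups, at 11.6 to 19.9 RPKM and 14.7 to 24.5 RPKM.

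**Figure D4:**
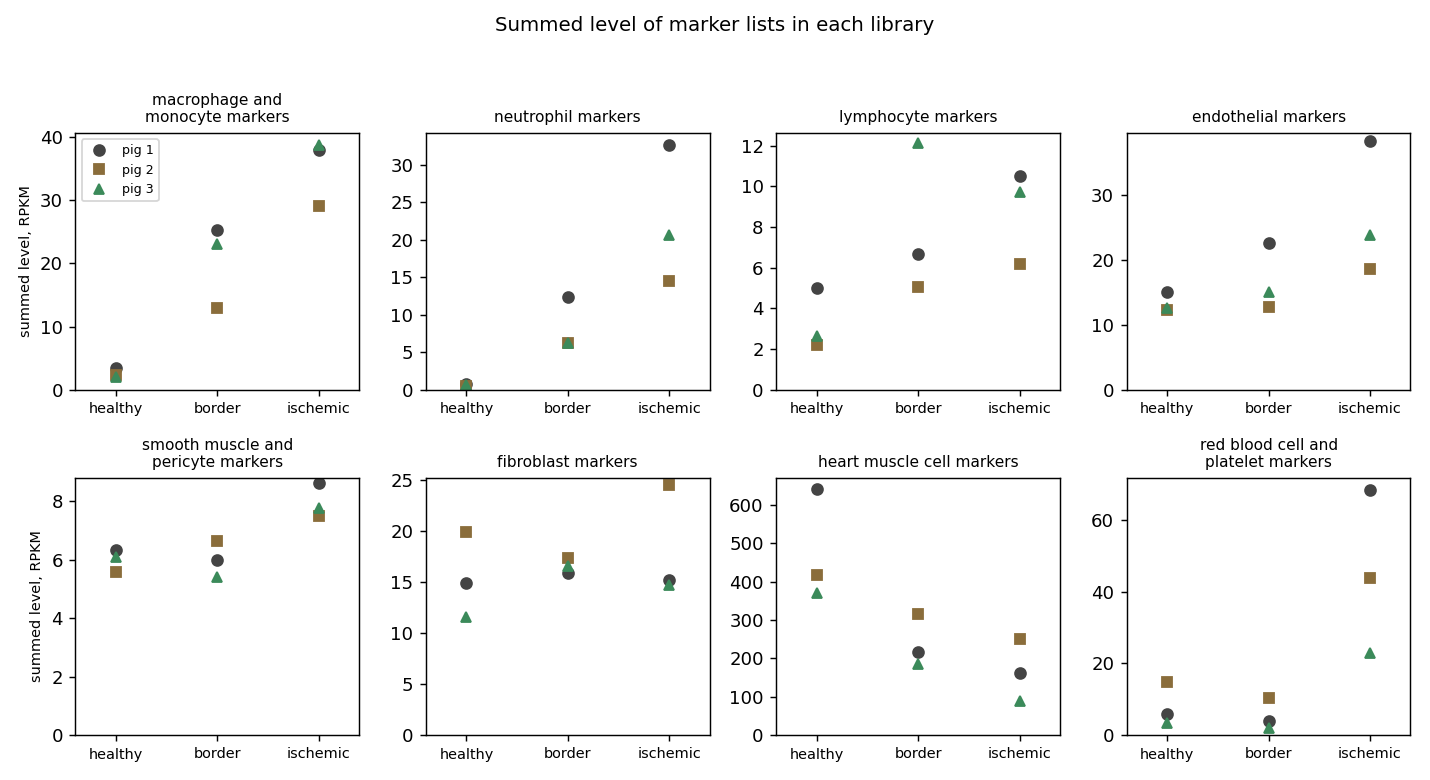
Summed level of each marker list in RPKM (y axis, from 0), 1 point for each library, with the shape of the point giving the pig. Macrophage and neutrophil markers are higher in all 3 ischemic than in all 3 healthy libraries and heart muscle markers lower, while fibroblast markers overlap between the zones.

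Antigen presentation genes were higher in 12 of 23 and lower in none. Of the 12, 1 had entered the comparison through the ischemic libraries alone. B2M, the light chain of class I molecules, rose from 10.1, 5 and 4.74 to 22.9, 12.3 and 14.7 RPKM (1.35 ± 0.20), and SLA-DQB1, of class II, from 3.08, 2.56 and 3.02 to 7.42, 4.49 and 6.76 RPKM (1.05 ± 0.19). Interferon and antiviral genes were higher in 8 of 18 (lowest 4, without healthy replicate 1), but RSAD2, a common readout of interferon, was not called (adjusted p = 0.495). Outside the list, MAVS, the adaptor of RNA sensing on mitochondria, fell from 6.49, 8.86 and 8.42 to 1.12, 0.726 and 1.41 RPKM (-2.79 ± 0.39, adjusted p = 0.00364). Its lowest healthy value was several fold above the highest ischemic one.

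Lipid mediator genes were higher in 5 of 10 and lower in 2 (lowest 1 lower, without healthy replicate 1). With at least 0.5 RPKM asked of both groups, 0 were higher and 1 was lower. PTGS2, the inducible prostaglandin synthase, rose from 0.379, 0.571 and 0.247 to 5.5, 5.85 and 4.43 RPKM (3.47 ± 0.23, adjusted p = 0.00056) and TBXAS1, thromboxane synthase, from 0.131, 0.06 and 0.135 to 1.56, 0.736 and 1.13 RPKM. LTA4H and CYSLTR2, which make and sense leukotrienes, had log2 fold changes of 1.44 ± 0.24 and 2.34 ± 0.40. PTGER3, a prostaglandin E2 receptor, fell from 1.17, 1.65 and 2.49 to 0.493, 0.231 and 0.271 RPKM (-2.10 ± 0.35). Outside the list, VDR, the vitamin D receptor, rose from 0.0556, 0.0493 and 0.0491 to 2.29, 0.799 and 1.41 RPKM (3.29 ± 0.40) over a span of 59258 bp.

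Coagulation and plasminogen genes were higher in 9 of 13 and lower in none. Of the 9, 1 had entered the comparison through the ischemic libraries alone. THBD, thrombomodulin, which turns thrombin into an anticoagulant, rose from 0.303, 1.21 and 0.506 to 20.4, 7.73 and 27.4 RPKM (4.59 ± 0.65, adjusted p = 0.00389). PROCR, the receptor for protein C that works beside it, had no healthy read and 35 ischemic reads, at least 35.6-fold higher. The plasminogen activators rose together, PLAT from 0.66, 0.557 and 0.563 to 2.7, 2.79 and 2.96 RPKM (2.07 ± 0.19) and PLAU from 0.688, 0.747 and 0.418 to 3.6, 1.79 and 4.63 RPKM (2.20 ± 0.42). Among 12 complement and Fc receptor genes 3 were higher and 1 lower, 25% and 8.33%, near the shares of all genes. That 1 gene, MASP1, a protease that starts the lectin pathway of complement, fell from 1.91, 2.74 and 2.48 to 0.254, 0.675 and 0.236 RPKM (-2.44 ± 0.25).

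Collagen and matrix genes were higher in 7 of 12 (lowest 4, without healthy replicate 3), metalloproteases and their inhibitors in 6 of 8 (lowest 3, without healthy replicate 3) and growth factors in 6 of 10, with none lower in any of these lists. TIMP1, the metalloprotease inhibitor, had the largest fitted log2 fold change of the protein-coding genes called higher, from 12 to 401 reads and from 0, 0 and 0.606 to 40.9, 15.3 and 31 RPKM (7.14 ± 0.62). VCAN, the proteoglycan versican, rose from 0.354, 0.633 and 0.395 to 3.99, 3.63 and 4.27 RPKM (2.89 ± 0.27) and TNC, tenascin C, from 0.0297, 0.0516 and 0.113 to 0.658, 1.03 and 1.3 RPKM, the call of TNC being lost in the fit on the 6 healthy and ischemic libraries (adjusted p = 0.0563). Fibroblast markers were higher in 3 of 7 and lower in none (lowest 0, without healthy replicate 3), with a median log2 fold change of 0.81. DCN and LUM, 2 of the 4 not called, had values of -0.57 and -0.63 (adjusted p = 0.181 and 0.191). The groups were apart for TIMP1, VCAN and TNC. HBEGF and AREG, ligands of the EGF receptor, rose from 0.245, 0.251 and 0.395 to 7.57, 4.61 and 12 RPKM and from 0.036, 0.086 and 0.0451 to 4.97, 2.93 and 2.11 RPKM. ADAM17, which sheds them, rose from 0.612, 0.741 and 0.661 to 2.1, 2.28 and 1.89 RPKM. TGFB1 rose by 3.1 fold on its longest row, whereas another row of the gene, with a higher mean, was not called (adjusted p = 0.216).

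Endothelial markers were higher in 5 of 7 tested (lowest 2, without healthy replicate 1) and lower in 1, PROX1, which heart muscle cells express too. CLDN5, the tight junction claudin of endothelium, rose from 3.29, 1.96 and 1.37 to 20.5, 5.9 and 11.4 RPKM (2.37 ± 0.33) and the adhesion receptor ICAM1 from 0.518, 0.138 and 0.347 to 4.82, 2.15 and 2.67 RPKM (2.96 ± 0.21), while VWF was not called (adjusted p = 0.0781). Endothelial markers, CLDN5 among them, summed to 12.3 to 15 RPKM in healthy and 18.6 to 38.2 RPKM in ischemic libraries. KIT, the stem cell factor receptor of mast cells and progenitors, rose from 0.688, 0.845 and 1.37 to 3.23, 2.74 and 3.25 RPKM (1.62 ± 0.24).

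MicroRNA loci are short, and of 55 tested 1 was higher and 4 lower, against 22.9% and 11.4% of all genes (lowest 1 lower, without ischemic replicate 2). MIR208B lies inside the span of MYH7 on chromosome 7 and held 98 healthy and 2 ischemic reads, a pooled ratio of 0.0623 (exact 95% interval 0.00744 to 0.231), so its reads and those of its host cannot be told apart. MIR1, a microRNA made in heart muscle, held 34 healthy reads and none in ischemic tissue, at least 3.71-fold lower by the same floor. MIR29C held 15 and none, 1.64-fold lower by that floor, which leaves out the counting error of the 15 reads. Its call was lost without healthy replicate 1 or ischemic replicate 2 or 3 (adjusted p up to 0.0603). It was also lost with limma-voom on the recovered reads (adjusted p = 0.211). MIR219A held 9 healthy reads and none, where the depth allows no bound, and MIR219A and MIR208B lost their calls without ischemic replicate 2 or 3 or several healthy libraries (adjusted p up to 0.11 and 0.0565). MIR219A was far from a call with limma-voom on the recovered reads (adjusted p = 0.553) and was not called after thinning to the smallest library total. MIR29B-1 had no healthy and 11 ischemic reads, at least 11.2-fold higher, and MIR21 had 22 ischemic reads, none of them in pig 2, and was not called (adjusted p = 0.22).

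The pigs differed most at loci with few reads. Among genes with a mean of at least 2 RPKM, the largest spread of the fold between pigs belonged to MIR320, MIRLET7A-1, MIRLET7I, MIR101-1 and MIR103-1. For MIR320 the log2 differences were 0.97, 1.14 and -10.18, from 107 healthy and 48 ischemic reads, and ischemic replicate 3 had no read. None of these 5 was called. Among the called muscle genes, pig 2 tended to keep the highest ischemic level, as in PLN, CD36 and MYL2 above. The sum of heart muscle markers, a list that holds PLN and MYL2, was highest in pig 2 among the ischemic libraries. It was 250.3 RPKM there, against 162.7 and 87.7 RPKM in pigs 1 and 3.

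Border zone values, from the same pigs, are given here as levels only, since the healthy libraries would be shared. PDE3A stood at 4.34, 6.19 and 4.5 RPKM in the border zone, CD36 at 1.97, 3.07 and 2.13 RPKM, PLN at 17.4, 26.6 and 20.6 RPKM and GATA6 at 7.18, 11.4 and 8.29 RPKM. Border zone replicate 2 was the highest for PDE3A, CD36 and PLN, as ischemic replicate 2 was. LDHA stood at 13.8, 8.87 and 16.1 RPKM, LDHB at 7.17, 8.05 and 4.27 RPKM and HK2 at 1.73, 0.807 and 1.15 RPKM. LDHA thus exceeded the longest LDHB row in the border zone of each pig. The shorter LDHB row, at 17.6, 38.8 and 7.85 RPKM, was above LDHA in pigs 1 and 2. IL1B stood at 16.2, 11.7 and 19.9 RPKM, ARG1 at 9.05, 3.76 and 5.7 RPKM, TIMP1 at 19.3, 10.5 and 16.4 RPKM and FOS at 74.1, 32.3 and 49.9 RPKM. Heart muscle marker sums of the border zone libraries were 216, 314 and 184 RPKM, and macrophage and monocyte marker sums 25.3, 13 and 23.1 RPKM.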

How the data were processed

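The table deposited by the authors holds RPKM values of 9 GRO-seq libraries at 4882 gene positions, with lengths per the file headers. Per the submitters' processing notes, reads were aligned with Bowtie to the pig assembly susScr3. Aligner version, counting program, strand setting and duplicate treatment were not given in the sources used here. RPKM times span gave whole reads within 0.01 for 100% of the nonzero values, from which library totals and read numbers were recovered. Read numbers between 1 and 30 were multiples of 3 in 32.8% to 53.2% of cases, so reads may not be independent molecules. Intervals cover counting error only, and bounds cover only that of the group without reads. Symbols, from a RefSeq table of Sscrofa11.1 used for names alone, matched 4793 positions and 2075 of the 2104 genes.

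Tests used limma 3.58.1 in R 4.3.3 on log2(RPKM + 0.1) over 9 libraries, with zone and pig as terms, trended and robust moderation, and Benjamini-Hochberg adjustment over 2104 genes at 0.05. The filter came before the choice of the longest row, so for 87 genes a shorter row was tested. The replicate numbers in the labels were taken to mark the pig, as the comparison was defined. Deviations of same-pig healthy and ischemic libraries from their zone means correlated at 0.059, 0.056 and 0.035. Those of healthy and ischemic libraries of different pigs correlated at -0.116 to 0.053, so these values hardly set same-pig pairs apart. limma-voom on the recovered reads called 897 genes. The fit was tested on simulated data.

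The members, lists and tests were chosen with earlier results of these data known. Named genes are the 15 largest called rises and falls with the same sign in all pigs, the 10 largest gains and losses in mean RPKM, the 5 genes of at least 2 RPKM with the largest SD between pigs, called microRNA loci, and list members, preferring those that kept their call without any 1 library. The latter and genes outside the lists were chosen after their values were seen, and RPS6KA1 was taken off the ribosomal protein list afterwards. Overlapping and antisense genes cannot be told apart, and near-identical copies make EEF1A1, PTMA, thymosin and ribosomal protein genes uncertain. Promoter sequences were not analysed here. Some genes are not reported here.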

Additional observations from a re-analysis of the deposited data

How the results depend on the processing

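Of the 722 calls, 272 (183 higher, 89 lower) held in each of the 28 alternatives in which the gene was tested. Without the pig as a replicate block 630 genes were called (422 higher, 208 lower), 607 of them among the 722, and beside MYH7, TNNI3 and BCL2A1 the class II gene SLA-DRB1 lost its call (adjusted p = 0.152). With only the 6 healthy and ischemic libraries 356 genes were called, 242 higher and 114 lower, and the counts of lower filament, lower respiratory and higher ribosomal protein genes were 4, 7 and 7. A filter at a mean of 2 RPKM tested 783 genes and called 371 (259 higher, 112 lower), and one at 0.5 RPKM in each of the healthy and ischemic groups tested 1650 and called 458 (303 higher, 155 lower). The filter on both groups left out genes low in healthy tissue. Beside the lists given above, it took the higher counts to 5 for innate sensing, 3 for the tumor necrosis factor family and 1 for amino acid genes. Quantile normalization gave 288 higher calls. Leaving out 1 library gave 416 to 618 calls, 300 to 424 higher and 116 to 194 lower. Pseudocounts of 0.01, 0.5 and 1 RPKM gave 709, 724 and 722 calls. The alternatives added after seeing the data gave 728 calls among spans of at least 1000 bp, 722 without the ribosomal RNA rows and 742 (532 higher, 210 lower) after scaling to the reads on table genes.

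Of 224 called genes examined singly, 181 kept their call in every alternative that tested them and 22 lost it without some 1 library. These genes were chosen in part for keeping their call without any 1 library, so their shares do not stand for all calls. Of all 722 calls, 342 held in each fit without 1 library and 272 in every alternative that tested the gene. The row that stands for a gene turned the direction of ATP1B1, to a log2 fold change of 0.0736 on the row with the highest mean, and of ATP5H, to 2.72 on the row with the highest mean, which was also the row left by the filters at 2 RPKM and at 0.5 RPKM in each group. Causes other than the row, the number of genes tested and the number of samples were not tested. The labels give replicates 1 to 3 of each zone, taken here as 3 pigs with 1 library for each zone and pig. Depth limits the genes with few reads: with 17 reads on the median gene in ischemic replicate 3, a low level there may go undetected.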

Other observations

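Further called genes of heart muscle and metabolism were lower in each ischemic than in any healthy library. HOMER1, a scaffold of calcium signalling, went from 2, 1.92 and 1.35 RPKM in healthy to 0.283, 0.4 and 0.281 RPKM in ischemic tissue (-2.13 ± 0.24). PKIA, the inhibitor of protein kinase A, went from 3.79, 2.4 and 2.15 to 0.494, 0.949 and 0.194 RPKM (-2.30 ± 0.41), the same direction as PDE3A. EPHX1, an epoxide hydrolase, fell from 1.57, 1.87 and 2.31 to 0.0901, 0.506 and 0 RPKM (-3.14 ± 0.52). CRAT, carnitine acetyltransferase, fell from 3.61, 2.66 and 2.63 to 1.19, 0.761 and 0.492 RPKM (-1.80 ± 0.26), and CMYA5, a large muscle scaffold, from 1.34, 1.27 and 1.03 to 0.141, 0.378 and 0.0319 RPKM (-2.40 ± 0.40).

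Others were higher in each ischemic than in any healthy library. GLRX, glutaredoxin, rose from 1.25, 0.578 and 0.758 to 8.35, 2.92 and 3.97 RPKM (2.35 ± 0.24). BHLHE40, a repressor tied to the clock and to hypoxia, rose from 5.53, 5.48 and 5.06 to 23.3, 15.2 and 30.9 RPKM (2.03 ± 0.26). SERPINE2, a protease inhibitor, rose from 0.486, 0.0419 and 0.308 to 2.64, 2.61 and 1.26 RPKM (2.74 ± 0.48), and TIMP2, a metalloprotease inhibitor, from 0.914, 0.441 and 0.771 to 3.77, 1.75 and 4.22 RPKM (2.00 ± 0.22). TAGLN, a smooth muscle gene, rose from 0.977, 0.935 and 1.06 to 2.75, 2.49 and 3.02 RPKM (1.38 ± 0.16). Smooth muscle and pericyte markers, TAGLN among them, summed to 5.57 to 6.34 RPKM in healthy and 7.5 to 8.64 RPKM in ischemic libraries. The natriuretic peptide gene NPPB was at 0.249, 0 and 5.73 RPKM in healthy and 7.66, 1.79 and 7.7 RPKM in ischemic tissue and was not called (3.04 ± 1.05, adjusted p = 0.0718). ANKRD1, a stress gene of heart muscle, was at 43.6, 24.8 and 62.5 RPKM in healthy and 22.9, 45.8 and 25.3 RPKM in ischemic tissue (-0.45 ± 0.44, adjusted p = 0.464) and was not called either.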
